A study of Oryza sativa Japonica Group with 96 samples.

Results

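The stem base of the empty-vector line DX was compared at 6 and 9 hours after induction with 3 hours after induction, so that the change of medium at 5 h lay between the groups and no CRL1 transgene was present. The set was chosen by line and hour: for every feature of the array, the mean of 6 h and 9 h in each of 3 independent experiments was set against 3 h of the same experiment. This took 9 of the 96 arrays, with all 36643 features. DX plants are the rice crown rootless 1 (crl1) mutant of cultivar Taichung 65 transformed with pINDEX2, a dexamethasone-inducible plant vector, left empty. Seedlings were grown for 5 days at 27 °C with 14 h of daylight and rested for 24 h in liquid medium. They then received 1 µM dexamethasone, a synthetic glucocorticoid that switches on the vector's promoter, and fresh medium without it after 5 h. The 3 h group therefore had been with dexamethasone for all its hours, and the 6 h and 9 h groups had left it. Each array held RNA of a pool of several stem bases from 1 independent experiment. The 2 groups used beside it were the DXC line at 3, 6 and 9 h (the same mutant with CRL1 in the vector, 1 line, the same dexamethasone and medium change) and DX at 27, 30 and 33 h, the same clock hours 1 day later. Both lines carry the crl1 mutation and the vector.

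The stem base is the short stretch of shoot from which rice crown roots arise, and CRL1 is a transcription factor required for their initiation. Submerged or poorly aerated plant cells switch from respiration to fermentation: pyruvate decarboxylase and alcohol dehydrogenase turn pyruvate to ethanol and so regenerate the cofactor that glycolysis needs, while nonsymbiotic haemoglobins bind oxygen and take part in the removal of nitric oxide. The transcripts of the decarboxylase and the dehydrogenase are known to respond quickly to low oxygen in rice. The list of low-oxygen genes used here also holds the haemoglobins. The clock genes of rice, including LHY in the morning and GI and the PRR genes later in the day, cycle with time and are the usual check on what hours alone can do.

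Values are log2 levels as normalized by the authors, differences are log2, and a feature was called when its limma p, adjusted by the Benjamini-Hochberg method over all features, was under 0.05. The 9 arrays had medians of 4.68 to 4.76. Arrays of the same experiment correlated at 0.974 to 0.987 across hours, and arrays of the same hour at 0.890 to 0.957 across experiments, so experiments differed more than hours did. Experiment 2 was the least like the others, with correlations of 0.884 to 0.945 to their arrays. The labelled tissue was checked against 5 sets of markers. The 6 KNOX genes of the shoot meristem had mean levels of 4.43 to 4.58 at 6 h and 4.45 to 4.57 at 9 h, against 4.36 to 4.59 at 3 h, with 3 of the 6 above 4.71, the median of these arrays. The 12 photosynthesis genes averaged 5.85 to 6.64 at 6 h and 6.02 to 6.57 at 9 h, against 5.80 to 6.46 at 3 h, with 11 of the 12 above that median. The 8 root genes lay at 4.12 to 4.46 and 4.05 to 4.28, against 4.06 to 4.15, with 3 of the 8 above that median. The 13 seed storage and amylase genes were low throughout, with 0 of 13 above it. For the 4 vascular genes the means were 4.36 to 4.47 and 4.33 to 4.51, against 4.33 to 4.63, with 3 of the 4 genes above the median of the arrays. In such bulk samples fewer cells of a type and less RNA per cell cannot be told apart.

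The first question was what the medium change and the passing hours did to the transcripts without CRL1. Averaged over 6 and 9 h, no transcript passed the test: 0 of 36643 features were called (background 0%), and 389 had an unadjusted p under 0.05. The median difference over all features was 0.012 with a median SE of 0.177. This fit did not pair the arrays of an experiment, so differences between experiments entered its error. A fit of the DX arrays at 3, 6 and 9 h alone took the experiment as a replicate block. It also called 0 features, with 1373 at an unadjusted p under 0.05 and a median SE of 0.116. In 99.07% of features the mean difference was under 0.5. The 3 experiments did not share a pattern either: across features, the change in one experiment correlated with that in another at -0.022, -0.019 and 0.022. In all 3 the sign was the same for 8952 features (24.4%), a share also found for DX at 30 and 33 h against 27 h (24.4%). These correlations are across genes of shared arrays and are given as a description. Only 2 features were over 1 higher in every experiment and 0 were over 1 lower. The 6 and 9 h arrays lay wholly above the 3 h arrays for 100 features (0.273%) and wholly below for 57 (0.156%). Taken singly, 6 h and 9 h also gave 0 called features each against 3 h, with 717 and 341 at an unadjusted p under 0.05.

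A short rise at 6 h, 1 h after the medium change, was called in some fits and not in others. On all 96 arrays, the experiment as a replicate block gave 0 called features at 6 h against 3 h, and a random block gave 1. With the 48 DX arrays alone, and the 4 consecutive hours of 1 experiment treated as a random block (0 to 9 h, 12 to 21 h and so on, a fit added after the data were seen), 19 features were called at 6 h against 3 h, all of them higher (0.0519% of features, higher). The 6 h arrays lay wholly above the 3 h arrays for 18 of the 19, where 2.23% of all features did, and all 19 were higher in 3 of 3 experiments. These 19 were singled out by that comparison, so the counts describe them. Their differences ran between 0.58 and 2.57 with a median of 1.03, and at 9 h their median difference from 3 h was 0.00, between -0.30 and 0.15. Of the 19, 15 have 1 gene symbol, 2 several and 2 none; all 15 are protein coding genes, on 9 chromosomes. The calls depended on experiments 1 and 3: without experiment 1, 0 features were called and without experiment 3 just 1, none of them among the 19, whereas without experiment 2 there were 20 calls, including 14 of the 19.

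Of the 19, 2 carry a gene name, and both are enzymes of fermentation and glycolysis. PDC2 (LOC4332519), a pyruvate decarboxylase, had levels of 7.50, 7.79 and 7.01 at 3 h, 8.44, 8.89 and 8.13 at 6 h, and 7.37, 7.81 and 6.97 at 9 h in experiments 1, 2 and 3. It was higher at 6 h in each experiment, with no overlap, and was back at its 3 h level by 9 h. The 6 h difference was 1.05 (SE 0.20), a 2.08-fold rise, with an adjusted p of 0.0283 in the fit of the DX arrays with a block and of 1 in the fit of all arrays without it. GAPC3 (LOC4329892), a cytosolic glyceraldehyde-3-phosphate dehydrogenase of glycolysis, had 5.04, 5.45 and 4.39 at 3 h, 5.65, 6.85 and 5.58 at 6 h, and 5.22, 5.4 and 4.53 at 9 h. It rose at 6 h by 1.07 (SE 0.21, 2.10-fold, adjusted p = 0.0371 with the block and 1 without). Its largest change came in experiment 2, at 1.41, and its smallest in experiment 1, at 0.61.

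None of the other 6 low-oxygen genes passed the test at 6 h, with the block or without it. Of the 7, 5 were above 0 in 3 of 3 experiments, as were 5769 of all 36643 features. ADH2 (LOC4350054), an alcohol dehydrogenase and the enzyme after PDC in ethanol fermentation, had 4.32, 4.74 and 4.59 at 3 h, 5.71, 5.4 and 4.88 at 6 h, and 4.36, 4.34 and 4.7 at 9 h. Its 6 h difference of 0.77 (SE 0.17) had an adjusted p of 0.0786 with the block, and its 9 h level was 0.86 below 6 h (adjusted p = 0.0314 with the block). The 3 arrays at 6 h exceeded every 3 h array, while the difference varied between 1.39 in experiment 1 and 0.28 in experiment 3. NSHB1, a nonsymbiotic haemoglobin, had 6.31, 6.54 and 5.51 at 3 h, 6.86, 7.63 and 6.50 at 6 h, and 6.45, 5.90 and 5.25 at 9 h. Its groups overlapped, and the difference of 0.87 (SE 0.48) was not called (adjusted p = 0.878 with the block). The 6 h level of NSHB1 was not distinctive in DX. Its mean at 39 h, 7.02 (SD 1.04), was no lower than at 6 h, and experiment 2 reached 8.32 at 27 h. NSHB2 had 6.19, 6.98 and 6.30 at 3 h, 7.74, 7.65 and 7.10 at 6 h, and 5.83, 6.34 and 5.95 at 9 h, a 6 h difference of 1.00 (SE 0.40, adjusted p = 0.705 with the block). Its highest hourly mean in DX was at 6 h (7.49), against 7.01 at 39 h, but experiment 1 reached 7.88 at 15 h. The remaining members stayed closer to 0, with PDC3 (LOC4344382), a second pyruvate decarboxylase, at -0.03, NSHB3 at 0.23 and NSHB4 at 0.15.

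Read as a list of 7 genes, the low-oxygen genes had a median 6 h difference of 0.77, with 6 of 7 above 0, against 0.02 over all features. By experiment the medians were 0.55, 0.65 and 0.28, against 0.00, 0.02 and 0.06 over all features. At 9 h the list median was -0.09, and for the mean of both hours 0.28, against 0.01 over all features. One of the 7 (PDC2) was called at 6 h with the block, where 0.0519% of all features were, and 0 of 7 without it, where 0% were. TPP1 (LOC4330221), a trehalose-6-phosphate phosphatase added after its values were seen, had 4.49, 4.96 and 4.58 at 3 h, 5.56, 5.64 and 5.33 at 6 h, and 4.42, 4.94 and 4.47 at 9 h. All of its 6 h arrays were above all others, but the difference of 0.83 (SE 0.20) was not called (adjusted p = 0.121 with the block).

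**Figure D1:**
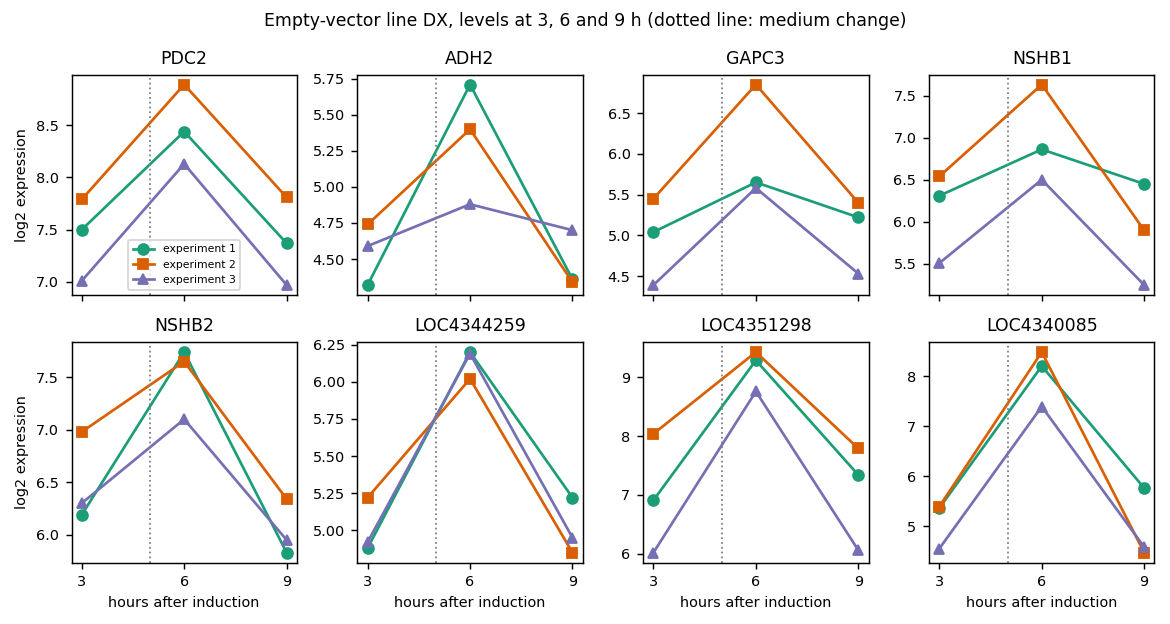
Log2 expression (y axis) of 8 genes in DX at 3, 6 and 9 hours after induction (x axis), one line and marker per experiment, with the medium change at 5 h dotted. Each gene is highest at 6 h in each experiment shown, as for PDC2 with 8.44, 8.89 and 8.13. The order of the experiments is the same at all 3 hours for PDC2 and changes between hours for ADH2 and NSHB2.

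The steepest rises belonged to genes that the tables used here give no role. LOC4347412 had 2.82, 2.79 and 3.33 at 3 h, 5.60, 5.17 and 5.42 at 6 h, and 2.95, 2.93 and 3.31 at 9 h, a 5.34-fold rise (difference 2.42, SE 0.42, adjusted p = 0.00849 with the block). Its 3 h and 9 h levels stood near the low end of the array scale, so the fold is measured from there. LOC4351298 had 6.91, 8.04 and 6.02 at 3 h, 9.29, 9.43 and 8.76 at 6 h, and 7.34, 7.79 and 6.06 at 9 h, a 4.51-fold rise (difference 2.17, SE 0.40, adjusted p = 0.0153). Both lay well clear of the 3 h arrays at 6 h, and in each experiment the 9 h value was within 0.43 of the 3 h value. LOC4344259 had the lowest adjusted p, at 5.33e-05, with levels of 4.88, 5.22 and 4.92 at 3 h, 6.20, 6.02 and 6.19 at 6 h, and 5.22, 4.85 and 4.95 at 9 h (difference 1.13, SE 0.14). LOC4344255, which rose by 0.78 (SE 0.13, adjusted p = 0.00315), lies close to it, with 4 genes between them in the RefSeq gene order of assembly ASM3414082v1.

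A feature that matches several genes, 16300846, had the largest rise among the 19, at 2.57 (SE 0.44, adjusted p = 0.00657). Its levels were 5.22, 5.25 and 4.43 at 3 h, 7.74, 7.72 and 7.14 at 6 h, and 5.35, 4.58 and 4.07 at 9 h. It was the single feature also called when all 96 arrays were fitted with the block (0.00273% of features; adjusted p = 0.02). The largest 6 h difference of those described was that of LOC4340085, at 2.92 (SE 0.65), with 5.36, 5.39 and 4.55 at 3 h, 8.20, 8.48 and 7.39 at 6 h, and 5.76, 4.47 and 4.58 at 9 h. It missed the threshold with the DX arrays (adjusted p = 0.0737) and passed in a fit of the 6 arrays of both hours with the experiment as a replicate block (adjusted p = 0.00381). That fit called 7 features (0.0191%), 4 higher and 3 lower, among them LOC4348710 at 2.29 (adjusted p = 0.0291), LOC4347412 at an adjusted p of 0.0279 and feature 16300846 at 0.0045. Only LOC4347412 and feature 16300846, 2 of the 19, were called in it, and PDC2 and GAPC3 were not. It had 2 residual degrees of freedom. The 3 lower features had identical values on every array and count as 1 profile, at -1.72, with no gene symbol.

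The other 9 genes among the 19 with 1 symbol rose at 6 h by 0.58 to 1.27. LOC4332595 differed by 1.27, LOC4351721 by 1.26, LOC4335304 by 1.02, LOC4345338 by 0.98, LOC4324059 by 0.94 and LOC4347702 by 0.94. LOC4324844, with a difference of 0.77, stood near the low end of the array scale at 2.79, 2.61 and 2.64 at 3 h, and at 3.25, 3.57 and 3.54 at 6 h. LOC4344575 and LOC4351186 had the smallest differences of the named genes, at 0.70 and 0.58, each with an adjusted p of 0.0391.

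By 9 h the 6 h features were back near their 3 h level. In the fit of the DX arrays with a block, 25 features were lower at 9 h than at 6 h and 0 higher (0.0682% of features, lower), and 16 of the 25 were among the 19. Both comparisons share the 6 h arrays, so the return is not independent of the choice at 6 h. Without the block, 0 features were called at 9 h against 6 h, with 840 at an unadjusted p under 0.05. Feature 16300846 was 2.87 lower at 9 h than at 6 h (adjusted p = 0.00109 with the block), LOC4344259 was 1.13 lower (adjusted p = 5.45e-05) and PDC2 was 1.11 lower (adjusted p = 0.0116).

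Across all 16 hours of DX, 6 h had the highest mean for all 19 features. The 19 were chosen for being higher at 6 h than at 3 h, which favours a top mean at 6 h. Their level averaged 5.19 both at 0 h and at 3 h. It stood at 6.39 at 6 h and had returned to 5.17 by 9 h. Later averages lay between 5.04 and 5.58, the top one at 39 h and the next, 5.46, at 15 h. The second-highest hour was 39 h for 12 of the 19 and 15 h for 3. For PDC2 the hourly mean was 7.74 (SD 0.70, n = 3) at 39 h, against 8.49 (SD 0.38, n = 3) at 6 h.

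**Figure D2:**
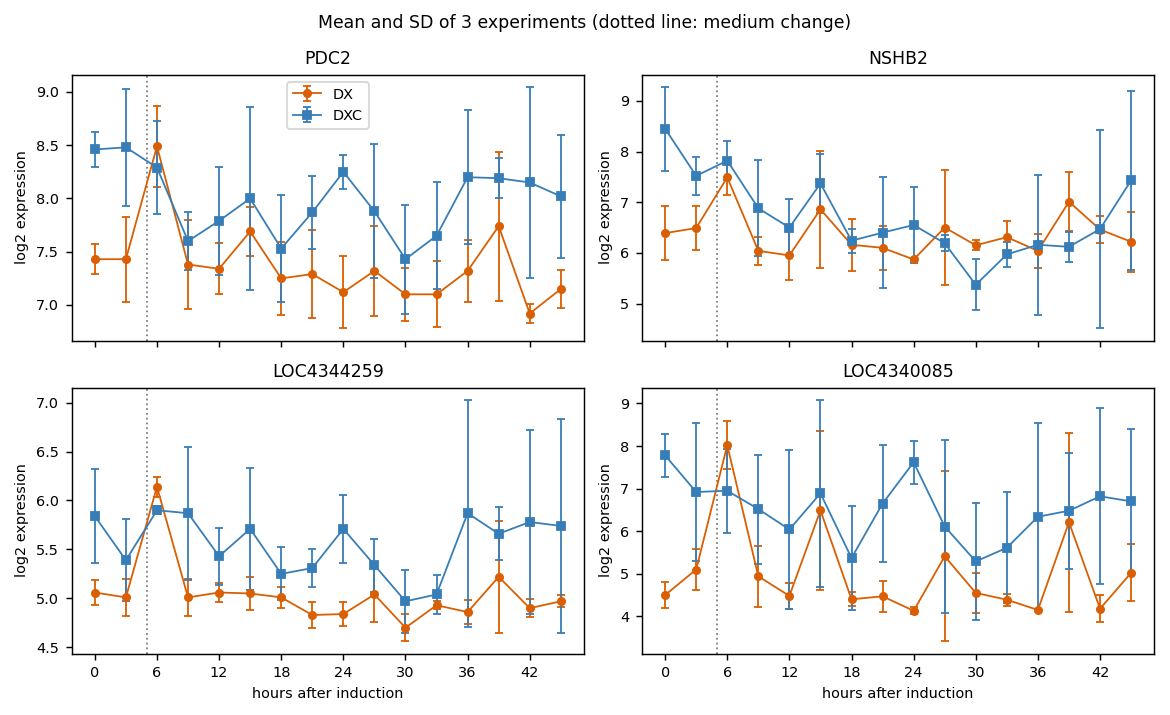
Log2 expression (y axis; mean and SD of 3 experiments) of 4 genes from 0 to 45 hours after induction (x axis) in DX (circles) and DXC (squares), with the medium change dotted. In DX each gene has its highest mean at 6 h, while DXC starts higher at 0 and 3 h for all 4 genes. The genes were chosen with their 6 h values known.

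On the next day the same clock hours gave no call. DX at 30 and 33 h against 27 h gave 0 called features (background 0%) and 324 at an unadjusted p under 0.05, and the experiments' changes correlated across features at 0.171, -0.065 and -0.144. For the 19 features, 30 h minus 27 h had a median of -0.22, against 0.00 over all features, and 17 of the 19 were below 0. The difference between the 2 days was tested directly. For 6 and 9 h it was called for 0 features, with 321 at an unadjusted p under 0.05 (limma, all arrays). For 6 h alone it was called for LOC4344259 only (0.00273% of features, higher), which differed between the days by 1.46 (adjusted p = 0.000412 with the block on the DX arrays). That single call was lost without experiment 1 or experiment 3. PDC2 had a difference between the days of 1.28 that was not called (adjusted p = 0.181 with the block). The arrays that chose the 19 enter the 6 h difference between the days, so it depends on that choice. The low-oxygen list had a next-day median of -0.22, against 0.00 over all features. In experiments 1, 2 and 3, PDC2 had 6.95, 7.78 and 7.24 at 27 h, and 6.81, 7.24 and 7.24 at 30 h. NSHB2 had 5.91, 7.80 and 5.79 at 27 h, and 6.12, 6.26 and 6.06 at 30 h. The fall of PDC2 was largest in experiment 2, and NSHB2 fell in experiment 2 alone.

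In DXC, which went through the same medium change, the 19 features had a median of 0.10 for 6 h minus 3 h, between -0.59 and 1.57. Of these, 4 were above 0 in 3 of 3 experiments, as were 5609 of all 36643 features. One, LOC4347702, was called (0.789% of all features were): it had 7.29, 7.18 and 7.80 at 6 h, against 5.68, 5.84 and 6.66 at 3 h in DXC, a difference of 1.36 (adjusted p = 0.0454, all arrays). In DX the difference of LOC4347702 was 0.94, and the lines did not differ in it beyond the error (0.42, adjusted p = 1). The largest DXC difference was that of LOC4347412, at 1.57, with 6.42, 3.75 and 6.27 at 6 h, against 5.06, 3.06 and 3.60 at 3 h; it was above 0 in each experiment but not called (adjusted p = 1). The DXC arrays already stood higher before the medium change: at 3 h the DXC mean minus the DX mean had a median of 0.80 over the 19. For 6 of them every DXC array lay above every DX array, as it did for 16.4% of all features. The DX 3 h arrays also entered the choice of the 19, which favours such a gap. PDC2 had 7.87, 8.25 and 8.75 at 6 h, against 8.62, 7.87 and 8.95 at 3 h in DXC, a difference of -0.19.

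Tested directly, the change at 6 h was lower in DXC than in DX for 0 of the 19 in the fit of all arrays (0.00273% of features, lower). With the block it was lower for 2 of them (0.175% of features, lower), LOC4324844 at -1.26 (adjusted p = 0.0196) and LOC4344255 at -1.37 (adjusted p = 0.0322). For PDC2 the line difference was -1.25 (adjusted p = 0.0799 with the block), and for LOC4351298 -2.34 (adjusted p = 0.0522 with the block). The DX arrays that chose the 19 are part of this line difference, so values below 0 were favoured by the choice. The low-oxygen list had a median change of 0.01 in DXC, against -0.01 over all features. In 3 of 3 experiments 3 of its 7 genes were above 0, as were 5609 of all 36643 features.

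**Figure D3:**
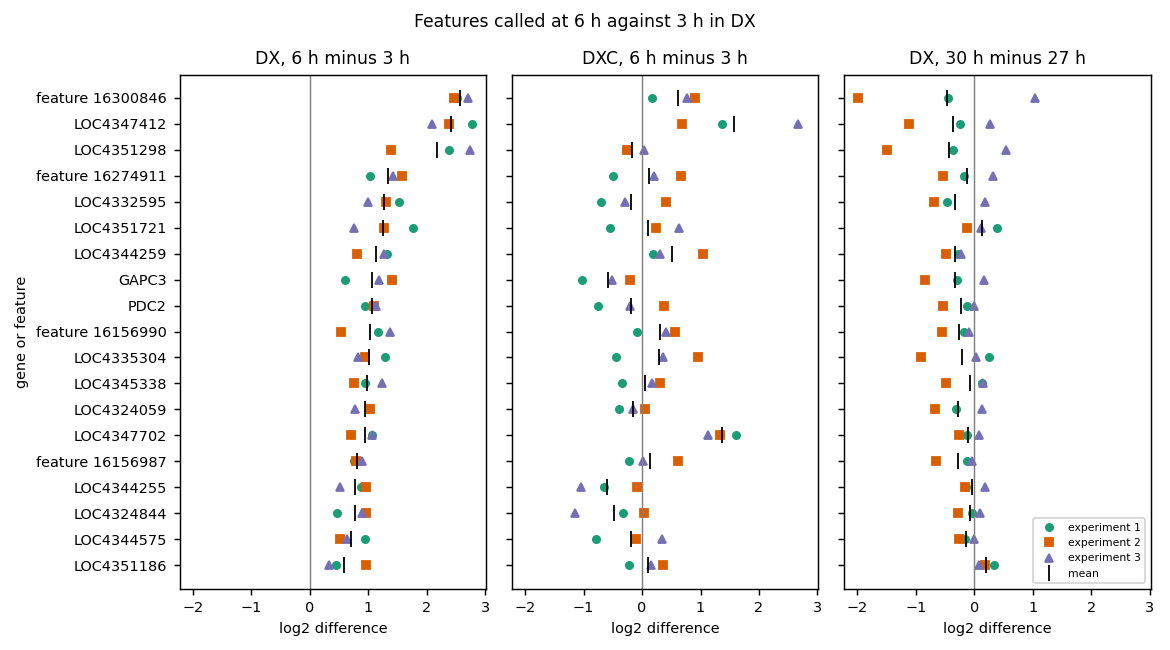
Log2 difference (x axis) of the 19 features called at 6 h in DX (rows), by experiment (markers) with the mean as a bar. The left panel gives DX at 6 h minus 3 h (0.58 to 2.57, chosen by this comparison) and the middle DXC at 6 h minus 3 h. The right panel gives DX at 30 h minus 27 h, where 17 of 19 means are below 0 and the median over all features is 0.00.

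Over both hours, the change from 3 h was also set against that in DXC. DXC gave 544 called features at 6 and 9 h against 3 h (387 higher and 157 lower, 1.48% of features), where DX gave 0, and its experiments' changes correlated across features at 0.222, 0.277 and 0.299. The difference between the lines was itself called for 130 features (0.355%), 118 of them higher in DXC and 12 lower. With the experiment as a replicate block, shared by both lines and all hours, the lower calls became 237 in DXC and 29 in the line difference. That block does not pair the arrays within each line. In the compared groups alone, with a block for each experiment within its line, the lower calls were 199 and 41. The 10 genes with the largest called differences moved between -0.10 and 0.26 in DX. The largest was LOC4330584, at 4.24, 3.91 and 4.51 in DXC in experiments 1, 2 and 3, with 0.03 on average in DX. Leaving out an experiment lowered the 130 to between 27 and 66, and the fit of the compared groups alone gave 40.

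The clock genes hardly moved over these hours in DX. GI, a clock gene of the evening, had 8.42, 8.87 and 8.15 at 3 h, 8.35, 8.79 and 7.98 at 6 h, and 8.27, 8.81 and 8.01 at 9 h. LHY (LOC4344703), a clock gene of the morning, had 5.31, 5.17 and 5.34 at 3 h, 5.00, 5.26 and 5.02 at 6 h, and 5.33, 5.5 and 5.07 at 9 h. For GI the experiments lay further apart than the hours, and for LHY the hours overlapped. The differences of 6 and 9 h from 3 h were -0.11 for GI, -0.11 for PCL1, -0.13 for PRR1, -0.08 for PRR73, -0.04 for PRR37, -0.07 for LHY and 0.03 for PRR95. None was called (adjusted p = 1 for each), and the 95% intervals of the 7 genes reached no further than -0.55 and 0.35. The list median was -0.08, against 0.01 over all features, and on the next day it was 0.19, against -0.01. Across all hours of DX, the hourly mean of LHY stayed between 5.1 and 5.68 and that of GI between 8.36 and 8.99. For PRR73 it lay between 6.58 and 7.36. Because the clock genes moved little over the whole course, they cannot show whether the hours alone changed other transcripts.

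The 41 lists of genes, with 786 features in all, had no called member for the mean of 6 and 9 h (background 0%). Outside the low-oxygen list their medians lay between -0.09 and 0.09 for both hours and between -0.11 and 0.16 at 6 h. Counting all 41 lists, 3 members differed by more than 0.5 in the mean of both hours, as did 0.931% of all features. One was PDC2, which rounds to 0.50. The second was DREB1A (LOC4347620), a transcription factor of the cold response, at 0.65, which rested on 1 array: it had 3.96, 3.69 and 4.75 at 3 h, 3.69, 6.99 and 5.08 at 6 h, and 4.38, 4.0 and 4.55 at 9 h. The third was the cell wall expansin EXPB15 (LOC4336601), at -0.70, with 7.0, 8.64 and 7.72 at 3 h, 6.44, 6.96 and 6.60 at 6 h, and 7.11, 8.58 and 6.82 at 9 h.

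**Figure D4:**
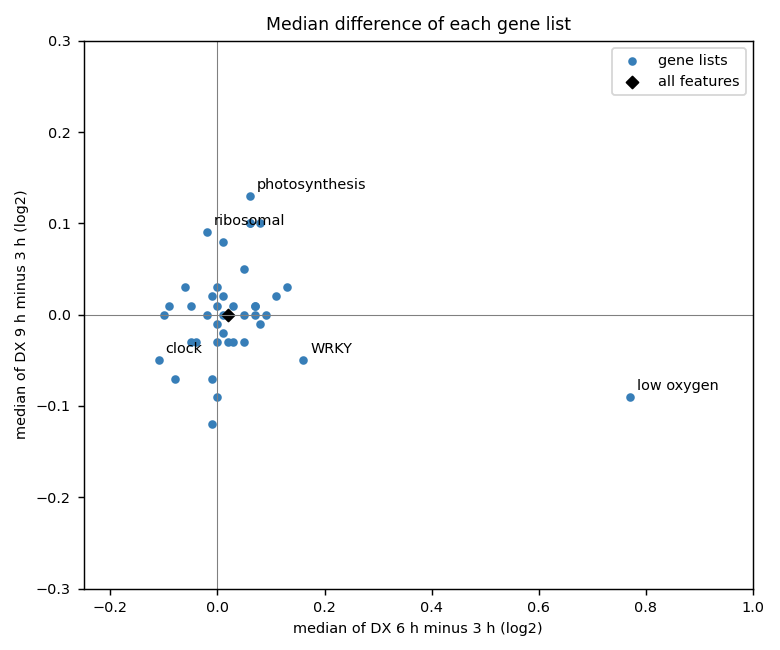
Median log2 difference of each of the 41 gene lists and of all features in DX, at 6 h minus 3 h (x axis) and at 9 h minus 3 h (y axis). The low-oxygen list sits at 0.77 and -0.09, and the other 40 lists lie between -0.11 and 0.16 on the x axis.

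Hormone genes stayed near 0. The 28 Aux/IAA genes, auxin-induced repressors of the auxin response, had a median of -0.08, with IAA13 (LOC4334069) at -0.28, mostly from experiment 1 (-0.79, -0.01 and -0.03). The 9 GH3 genes, whose enzymes conjugate auxin or jasmonate to amino acids, had a median of 0.03, with GH3.8 (LOC4343785) at 0.34. The 9 cytokinin response genes had a median of -0.01, the type-A response regulators RR9 and RR10 lying at -0.40 and -0.31, lower in 3 of 3 experiments and uncalled (adjusted p = 1). KAO (LOC4339885), an enzyme of gibberellin synthesis, was at -0.30, with an unadjusted p of 0.0202 and an adjusted p of 1. The 11 ethylene genes had a median of 0.03, with the transcription factor EIL1 (LOC4332697) at 0.20. The 36 jasmonate genes had a median of 0.04 and ranged between -0.24 and 0.28. Of the 80 genes of abscisic acid and drought, 43 were above 0, and the median was 0.00.

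Nutrient and sugar genes also gave no call. The 14 nitrogen transport genes had a median of -0.06 and the 8 nitrogen assimilation genes 0.05, with the nitrate reductase NIA1 (LOC4345795) at 0.26, again mostly from experiment 2 (0.08, 0.65 and 0.04). The 24 phosphate genes had a median of 0.00; SPX3 (LOC4348535), which is induced by phosphate starvation, had -0.61, 0.12 and -0.24. The 36 iron genes had a median of -0.03, with the nicotianamine synthase NAS1 (LOC4332608) at -0.49 (-0.28, -0.65 and -0.53, 95% interval -1.20 to 0.22). The 26 genes of potassium and sulfate transport had a median of 0.02, the 27 aquaporins -0.03 and the 45 sugar genes 0.03. RAMY3D (LOC4345814), an amylase gene induced by sugar starvation, was at 0.22 with an unadjusted p of 0.0175 and an adjusted p of 1.

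Stress, growth and root genes followed the same course. The 47 heat shock genes had a median of -0.04, with HSFA3 (LOC4329526) at 0.27, higher in 3 of 3 experiments. The 61 redox genes had a median of 0.00, the 6 WRKY genes 0.06 and the 13 pathogenesis genes, mostly chitinases, -0.03. At 6 h the WRKY median was 0.16, the highest after the low-oxygen list, with 0.27, 0.24 and -0.01 by experiment. The 10 crown root genes had a median of 0.05; WOX11 (LOC4344325), a homeobox gene of crown root growth, was at 0.09. The 47 expansin and XTH genes, which loosen the cell wall, had a median of 0.02, with EXPA21 (LOC4332961) at 0.49 and its experiments at -0.14, 1.57 and 0.04. The 11 mitotic genes had a median of 0.02, the 21 replication genes 0.04, the 9 histone genes -0.09 and the 25 ribosomal protein genes 0.04.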

How the data were processed

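The log2 expression values of 36643 features on 96 arrays were used as deposited by the authors, with no further normalization; 0 columns lay outside the listed samples. Per the submitters' processing notes they were made with GCRMA, a method that uses probe sequence for the background, normalizes the arrays and combines probes; which release and options is not known here. A detection call and a depth were not given, so precision depends on the number of arrays. The platform annotation gave 24161 features 1 gene symbol, 90 several and 12392 none; names other than LOC symbols came from synonyms in the RefSeq gene table (assembly ASM3414082v1), for 2742 features. Of the features, 3912 share their values with another.

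One limma 3.58.1 model (R 4.3.3) with an intensity trend covered the 32 combinations of line and hour, at 3 arrays each, with 64 residual degrees of freedom; 7 comparisons were planned and 5 added after the 6 h values were seen, each adjusted by Benjamini-Hochberg over all features. The code was tested on simulated data. The series design text says that replicate numbers mark independent experiments, so they pair samples: deviations of the 9 arrays from their group means correlated at 0.502 to 0.826 within an experiment and -0.721 to 0.187 between experiments. Alternatives were the experiment as a replicate block, 4 consecutive hours of an experiment as a random block, the compared groups alone, quantile normalization, a mean log2 value of at least 4, and leaving out each experiment.

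Genes and lists were chosen with earlier results of these data known. The rule for named genes took the 10 higher and 10 lower largest called genes with 1 symbol and equal sign in 3 experiments, which gave none at 6 and 9 h, the 5 higher and 5 lower called in the difference between lines (and between days, none), all clock genes and up to 4 genes of each list with the lowest p. The genes of the 6 h rise were chosen after their values were seen.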

Additional observations from a re-analysis of the deposited data

Results flagged for a closer look

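The change at 6 and 9 h against 3 h differed between the lines, by a direct test in limma over all arrays, for 130 features, and the 10 named here are those with the largest called differences. Higher in DXC than in DX were LOC4330584 by 4.19 (DXC 4.22, DX 0.03, adjusted p = 1.79e-07), LOC9268927 by 3.09 (DXC 3.02, DX -0.07, adjusted p = 1.05e-05), LOC4351404 by 3.05 (DXC 3.23, DX 0.18, adjusted p = 4.46e-05), LOC4336268 by 2.96 (DXC 2.92, DX -0.04, adjusted p = 9.47e-10) and LOC4327048 by 2.95 (DXC 3.20, DX 0.25, adjusted p = 2.18e-08). In each of these 5 the DXC change was above 2 in all 3 experiments. Lower in DXC than in DX were LOC4339039 at -1.38 (DXC -1.12, DX 0.26, adjusted p = 0.043), LOC4330695 at -1.13 (DXC -1.08, DX 0.05, adjusted p = 0.0395), LOC4342640 at -0.92 (DXC -0.72, DX 0.20, adjusted p = 0.0154), LOC4347756 at -0.90 (DXC -0.75, DX 0.16, adjusted p = 0.0466) and 4CLL7 (LOC4342925) at -0.87 (DXC -0.97, DX -0.10, adjusted p = 0.0369).
Under the alternatives, 31 of 88 recomputed values of these 10 genes were no longer called and 0 changed direction.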

How the results depend on the processing

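For DX at 6 and 9 h against 3 h, 0 features were called under the replicate block and every other alternative run, apart from 1 feature with the DX arrays and the random block without experiment 2; leaving out an experiment in the fit of all arrays gave 0 each time. At 6 h against 3 h, 0 became 1 with the random block on all arrays, 19 with it on the DX arrays (0 to 20 when an experiment was left out) and 7 in the 6 arrays with the replicate block. At 9 h against 6 h, 0 became 3, 25 (1 to 15 without an experiment) and 2 in the same fits, and the difference between the days at 6 h became 1 (0 to 2). The median SE at 6 h against 3 h was 0.204 without a block, 0.15 with the random block, and 0.136 in the 6 arrays. The median difference was 0.019 in each of these fits. The cause of the changed counts was not tested. The 9 h and next-day comparisons stayed at 0. DXC gave 544 calls, 697 with the replicate block, 1443 with the random block, 315 in the compared groups alone and 231 to 264 without an experiment. The line difference gave 130, 184 with the replicate block, 456 with the random block (320 higher and 136 lower), 40 in the compared groups, 196 there with the replicate block, and 27 to 66 without an experiment. The replicate block on all arrays moved no total reported here by over 1.5 times, but the lower calls became 237 (157 without it) in DXC and 29 (12 without it) in the line difference. Of the named genes at 6 and 9 h, 58 of 2437 recomputed differences changed sign, none of them called. The random block assumes 1 correlation for all features, and sets of 4 hours are named in no label.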
